A study of Mus musculus with 4 samples.

Results

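The 8 Ly6 genes described here, Ly6c1, Ly6c2, Ly6a, Ly6e, Ly6d, Ly6g, Ly6i and Ly6k, were taken by gene symbol from 15981 genes listed in the expression tables of tumor-infiltrating Tc1 and Tc9 cells. They were picked because Ly6c2 had the largest fall in Tc9 cells in an earlier reading of the same data, so their Tc9 against Tc1 values are given as a description, with no test. Both groups began as CD8+ T cells of Thy1.1+ Pmel-1 mice, which carry a transgenic receptor for the gp100 antigen of melanoma. Tc9 cells were polarized with IL-4, TGF-β and an antibody to IFN-γ, and Tc1 cells with rhIL-2, over a culture of 5 days in all. The cells were injected into Thy1.2+ C57BL/6 mice carrying subcutaneous B16 melanoma of 10 days that also received cyclophosphamide, peptide-pulsed dendritic cells and rhIL-2, and they were sorted from the tumors 14 days after transfer. RNA from several mice was pooled into 2 libraries per group, so the 2 libraries show the spread between pools and not between animals. The culture history and the time in the tumor cannot be told apart, since no cells from before transfer are described here.

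Ly6 proteins are small surface proteins with a three-finger fold that are held in the outer leaflet of the membrane by a glycosylphosphatidylinositol (GPI) anchor. Ly6C, the product of the near-identical genes Ly6c1 and Ly6c2, is carried by memory and effector CD8+ T cells, monocytes and some endothelial cells. Ly6A, also called Sca-1, marks stem cells and activated lymphocytes, and Ly6E is a broadly expressed member known for effects on virus entry. Ly6C, Ly6A and Ly6E are classical products of interferon-treated lymphoid cells. Ly6G is the defining surface protein of neutrophils, Ly6D of early B lineage cells, and Ly6K is best known from testis and some tumors.

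The members lie in 1 cluster on chromosome 15, from 74762056 to 75159128 in GRCm38, a span of 397 kb. The lower coordinates of Ly6c1 (Entrez gene 17067, chr15:75044018-75048920) and Ly6c2 (100041546, chr15:75108161-75112066) lie 64.1 kb apart, with Ly6c2 at the higher position. Their longest protein-coding transcripts in GENCODE M21 are 97.6% identical, over 802 of 822 aligned bases, and 30.8% of all 50-base stretches of Ly6c2 transcripts also occur in Ly6c1. For 100-base stretches the share is 14.9%, so a read from one gene can belong to the other. Ly6a (110454, chr15:74994877-74998031) is 84.7% identical to Ly6c2 and has 0.367% of the Ly6c2 stretches of 50 bases, whereas Ly6e (17069, chr15:74955025-74959904) is 61.4% identical and has none. Ly6i and Ly6g are 84.6% and 81.3% identical to Ly6c2, and Ly6d and Ly6k 62.0% and 59.7%.

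The promoters of Ly6c2 and Ly6c1 are shown because the 2 genes had the lowest Tc9 levels relative to Tc1 of the members, and because their sequences upstream of the start differ more than their transcripts. Each window is RefSeq sequence of GRCm38.p6 and runs from 250 bases before to 50 bases after an annotated start, on the minus strand, at chr15:75111922-75112221 for Ly6c2 and chr15:75048788-75049087 for Ly6c1. Capitals mark matches to AGGAAGT, the core of ETS factor sites, and to TATAAA, the TATA box.
Ly6c2: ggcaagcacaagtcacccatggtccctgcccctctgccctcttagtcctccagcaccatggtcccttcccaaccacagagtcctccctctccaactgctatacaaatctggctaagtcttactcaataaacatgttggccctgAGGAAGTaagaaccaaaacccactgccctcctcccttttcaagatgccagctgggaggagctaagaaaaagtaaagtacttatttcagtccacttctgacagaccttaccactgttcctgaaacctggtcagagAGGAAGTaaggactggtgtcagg
Ly6c1: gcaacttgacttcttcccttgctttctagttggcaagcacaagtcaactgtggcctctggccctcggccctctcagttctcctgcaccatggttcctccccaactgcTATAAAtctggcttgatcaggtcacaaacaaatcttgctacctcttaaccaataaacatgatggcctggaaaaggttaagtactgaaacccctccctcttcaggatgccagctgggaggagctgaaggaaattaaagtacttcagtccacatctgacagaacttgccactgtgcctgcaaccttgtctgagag
The windows are 78.2% identical over 266 aligned bases. The Ly6c2 window holds 2 matches to AGGAAGT and none to TATAAA, and this Ly6c1 window holds 1 match to TATAAA and none to AGGAAGT. Among 32851 promoter windows of the same length, 9.35% held AGGAAGT and 13.6% held TATAAA on either strand. No match was found in either window to TTCNNNGAA, the site of STAT dimers, to its STAT6-type form with 4 bases between TTC and GAA, to the core of the interferon response element (GAAA, 2 bases, GAAA), or to AGGTGTGA, a T-box motif. Those letters occurred in 8.30%, 6.95%, 3.44% and 1.28% of all windows. TGTGGT, the RUNX core, was found once in the Ly6c2 window, as its complement, and in 16.8% of all windows. A second window of each gene, from another annotated start, gave no match to the STAT, interferon or T-box letters. The matches to the other letters depended on the start used for Ly6c1, whose second window, at chr15:75048614-75048913, holds 1 match to AGGAAGT and none to TATAAA. The second Ly6c2 window again holds 2 matches to AGGAAGT and none to TATAAA, so AGGAAGT occurs near a start of both genes. A match or its absence describes these letters only.

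Each deposited table lists genes in the order of their identifiers and stops at a different point, so the members were not all measured in every library. Ly6c2 and Ly6a were reached by all 4 tables. Ly6c1, Ly6e and Ly6d were reached by 3 tables, those of Tc1 replicate 2 and both Tc9 libraries, and Ly6k, Ly6g and Ly6i by the table of Tc9 replicate 2 alone. A gene that a table reaches but does not list was taken as 0 counts. The libraries were of similar size, between 30822953 and 31927162 counts. A floor of 3 counts was set as an approximate upper limit for a count of 0. It corresponds to between 0.0952 and 0.0956 CPM (counts scaled to the normalized library size). Levels between genes are compared below as FPKM (counts scaled by transcript length and library size), and differences between libraries as normalized CPM.

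Of 10 T cell genes that all 4 tables reach, 9 were listed in every library and Trac, the constant region of the receptor alpha chain, was listed in none. Their summed level was 2102 and 2156 CPM in Tc1, against 2215 and 2180 CPM in Tc9. Of the 9 tested, the receptor chains Cd3e and Cd3g were higher in Tc9 at log2 fold changes of 0.73 (SE 0.17) and 0.49 (SE 0.11), and Cd2 and Cd5 were lower at -0.44 (SE 0.10) and -0.61 (SE 0.12), with adjusted p of 0.0108, 0.00995, 0.0107 and 0.00397 (edgeR). Ly6C is also a monocyte protein, and Lyz2, the lysozyme of myeloid cells, had 0 counts in Tc1 replicate 2 against 3 and 0 in Tc9. Of 16 myeloid genes, 11 had 3 counts or fewer in Tc1 replicate 2 and 12 in Tc9 replicate 2, among them Csf1r, Adgre1 and Cd14. The summed myeloid level was 16.6 CPM in Tc1 replicate 2 and 20.8 CPM in Tc9 replicate 2. Ccr2, the monocyte chemokine receptor that T cells also carry, had 65 counts in Tc1 replicate 2 against 4 and 4 in Tc9, and Mpeg1 had 65 against 19 and 11. Cd68 was on the other side, with 226 and 221 counts in Tc1 against 358 and 439. Of 7 endothelial genes reached in both replicate 2 libraries, 6 had 3 counts or fewer in each, and Pecam1, which T cells also express, had 445 and 446. The part of other cells in the Ly6 values was not tested beyond these levels.

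Ly6c2 was abundant in Tc1 cells and low in Tc9 cells. Its estimated counts were 5846.90 and 5648.08 in Tc1, against 284.99 and 300 in Tc9. Per length, its level was 267.13 and 260.83 FPKM in Tc1 and 13.38 and 14.17 FPKM in Tc9. The groups lay far apart, with the 2 libraries of a group within 0.0443 log2 units of each other in Tc1 and 0.0739 in Tc9. Normalized CPM averaged 182.7 ± 3.97 (SD, n = 2) in Tc1 and 9.32 ± 0.340 (SD, n = 2) in Tc9, so that Tc9 cells held 5.10% of the Tc1 level. The fitted log2 fold change was -4.29 (SE 0.13), or 19.6-fold lower in Tc9. Ly6c2 had the lowest value of the 1284 genes tested over the 4 libraries, which is what it was picked for. The next were LOC100861615 at -3.70 (SE 0.76), on 13 and 16 counts in Tc1 against 0 and 2, and Cd80 at -3.38 (SE 0.13). In bulk RNA, fewer cells with a transcript and less transcript per cell cannot be told apart.

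In Tc1 cells Ly6c2 stood among the most abundant transcripts. It ranked 180 of 7408 genes by FPKM in Tc1 replicate 2, above 97.6% of the genes listed. In Tc9 replicate 2 it ranked 4899 of 15442, above 68.3%. The tables list different sets of genes, so these ranks are not on the same scale. The transcript was thus still present in Tc9 cells at a middle level, with an exact Poisson interval of 267 to 336 around the 300 counts, an interval that covers counting error only, as do all intervals here.

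Ly6a was also lower in Tc9 cells, by less. Its counts were 5961 and 5911 in Tc1, against 2681 and 2329 in Tc9. Its level was 228.00 and 227.67 FPKM in Tc1 and 105.37 and 92.12 FPKM in Tc9, and the groups did not overlap. The Tc1 libraries were 0.0066 log2 units apart and the Tc9 libraries 0.20. The fitted log2 fold change was -1.24 (SE 0.12), 2.36-fold lower, which left Tc9 cells with 42.3% of the Tc1 level. Ly6a had the 43rd lowest value of the 1284 genes. Both members that 4 tables reach were thus lower without overlap, where 35.7% of all genes tested were lower without overlap and 4.44% were at least 2-fold lower. An adjusted p under 0.05 with the lower level in Tc9 was found for 16.7% of the genes (edgeR quasi-likelihood test, Benjamini-Hochberg). Nothing is read from these shares, since the members were chosen on this contrast.

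**Figure D1:**
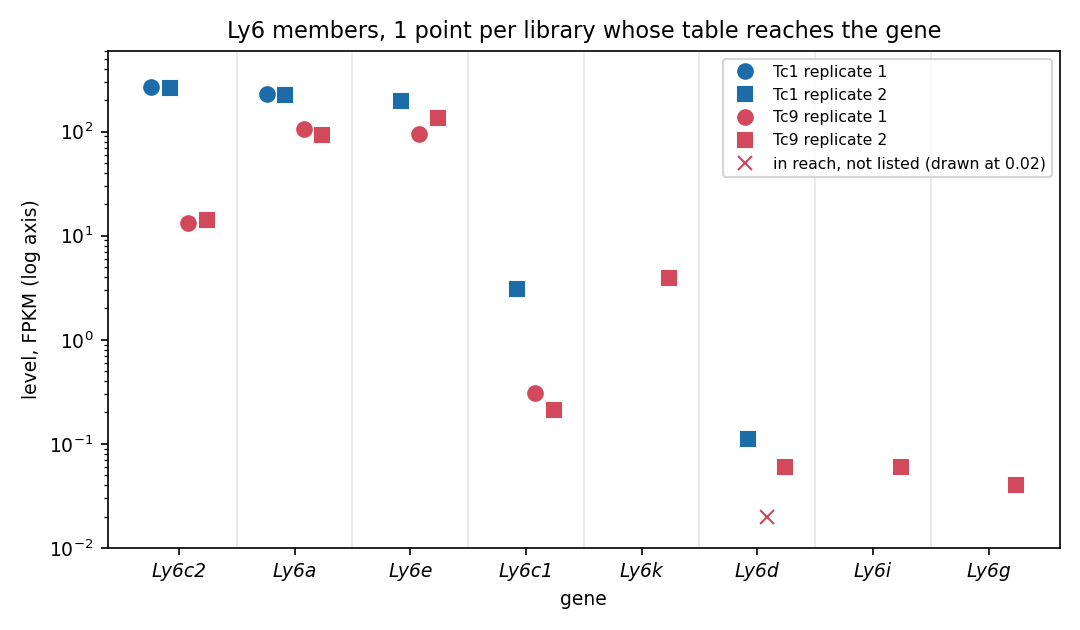
Level of each Ly6 gene in FPKM on a log axis, with 1 point for each library whose table reaches the gene, Tc1 in blue and Tc9 in red, and no error bars since each point is a library. Ly6c2, Ly6a and Ly6e lay together in Tc1, and Ly6c2 lay at 13.38 and 14.17 FPKM in Tc9, below Ly6a and Ly6e.

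Ly6c1 was a minor transcript with a shift like that of Ly6c2. Its counts were 60.92 in Tc1 replicate 2, against 5.94 and 4 in Tc9, or 3.07 FPKM against 0.31 and 0.21 FPKM. Both Tc9 libraries were below the single Tc1 library whose table reaches it. The log2 ratio to Tc1 replicate 2 was -3.93 for Tc9 replicate 2 (95% Wilson interval -5.33 to -2.53) and -3.35 for Tc9 replicate 1 (-4.52 to -2.17). With 1 Tc1 library there is no replicate check on that side.

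Because Ly6c1 and Ly6c2 share sequence, reads assigned to one may come from the other, and their estimated counts are not whole numbers in 3 of the 4 libraries for Ly6c2. Ly6c1 made up 1.07% of the counts of the pair in Tc1 replicate 2 (95% Wilson interval 0.833 to 1.37), 2.04% in Tc9 replicate 1 (0.948 to 4.42) and 1.32% in Tc9 replicate 2 (0.513 to 3.33). The 3 intervals overlap, and a difference in the share of Ly6c1 was not tested. They do not cover the error in dividing reads between the 2 genes. Summed over the pair, counts were 5709 in Tc1 replicate 2, against 290.93 and 304 in Tc9. The summed log2 ratio was -4.23 for Tc9 replicate 2 and -4.29 for replicate 1, so the low Ly6C transcript level in Tc9 does not depend on how reads were divided between the 2 genes. Of the 50-base stretches of Ly6c1 transcripts, 11.1% also occur in Ly6a, so some Ly6c1 reads could come from Ly6a. The sum does not address that, and it was not tested.

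Ly6e had the smallest difference of the abundant members and the widest spread. Its counts were 11841 in Tc1 replicate 2, against 5643 and 7945 in Tc9. Its level was 195.90 FPKM in Tc1 replicate 2 and 95.66 and 135.01 FPKM in Tc9. Both Tc9 libraries were lower, but they were 0.49 log2 units from each other. The log2 ratio to Tc1 replicate 2 was -0.57 for Tc9 replicate 2 (95% Wilson interval -0.62 to -0.53) and -1.07 for Tc9 replicate 1 (-1.11 to -1.02). These intervals do not overlap, so which Tc9 library is used decides whether the difference is 1.49-fold or 2.10-fold.

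Of the 5 members that both replicate 2 tables reach, 4 had 10 counts or more in a library. All 4 were lower in Tc9 and 3 were at least 2-fold lower, where 47.6% of 6225 genes were lower and 4.95% at least 2-fold lower in the same pair of libraries. Over the 3 libraries, both Tc9 values were below the Tc1 value for those 4 members and for 37.9% of 2628 genes, and both were at least 2-fold below it for Ly6c2, Ly6c1 and Ly6a and for 3.88% of those genes. The median log2 ratio of all genes was 0.03, close to 0. Nothing is read from these shares either, since the members were chosen on this contrast. Ly6c1 and Ly6c2 are also not separate evidence, because a read may be assigned to either.

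The remaining members were at or near the lowest detectable level in the libraries that reach them, apart from Ly6k. For Ly6g and Ly6i that is Tc9 replicate 2 alone, and their level in Tc1 is not known here. Ly6d (17068) had 2 counts in Tc1 replicate 2, 0 in Tc9 replicate 1 and 1 in Tc9 replicate 2. All are at or under the floor of 3 counts, so no fold is given. In Tc9 replicate 2, Ly6g (546644) had 1 count and Ly6i (57248) had 2. Csf3r, S100a8 and S100a9, other genes of neutrophils, were not listed in either replicate 2 table. Ly6k (76486) had 76 counts in Tc9 replicate 2, or 3.89 FPKM and 2.42 CPM (exact Poisson interval 1.91 to 3.03). That per-length level was above those of Ly6c1, Ly6d, Ly6g and Ly6i in the same library, and its level in Tc1 was not analysed here.

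The order of the abundant members turned between the groups. In Tc1 replicate 2 the FPKM levels ran from Ly6c2 through Ly6a to Ly6e, at 38.1%, 33.3% and 28.6% of their sum of 684.4. In Tc9 replicate 1 the shares were 6.24%, 49.1% and 44.6% of a sum of 214.4, and in Tc9 replicate 2 they were 5.87%, 38.2% and 56.0% of 241.3. Ly6c2 went from the first to the last place, and Ly6a stood 7.88 and 6.50 times above it in the 2 Tc9 libraries against 0.873 times in Tc1. Ly6a and Ly6e were neighbors whose order was not settled. Ly6e was at 0.908 times Ly6a in Tc9 replicate 1 and at 1.47 times in Tc9 replicate 2.

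Around the members, 34 protein-coding genes were annotated within 500 kb of the cluster, 26 of them not members. This set was drawn up with the values in view and is described only. Of the 26, 9 had a count in any table, and most of the genes between the members were not listed in the tables that reach them (the plot of levels in chromosomal order). Jrk, a nuclear protein at one side of the cluster, had 202 counts in Tc1 replicate 2 against 185 and 178 in Tc9. Them6, a thioesterase family gene, had 601 counts in Tc1 replicate 2 and 500 in Tc9 replicate 2. Zfp41, a zinc finger gene at the other side, had 247 and 204. These 3 lay within a log2 ratio of -0.27 to -0.18, against -4.23 for Ly6c2. Arc, the activity-regulated cytoskeleton gene, was lower in Tc9 with 131 and 147 counts against 28 and 49, a log2 fold change of -1.85 (SE 0.27). Lynx1, itself a Ly6 family gene, had 17 counts in Tc1 replicate 2 and 29 in Tc9 replicate 2.

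**Figure D2:**
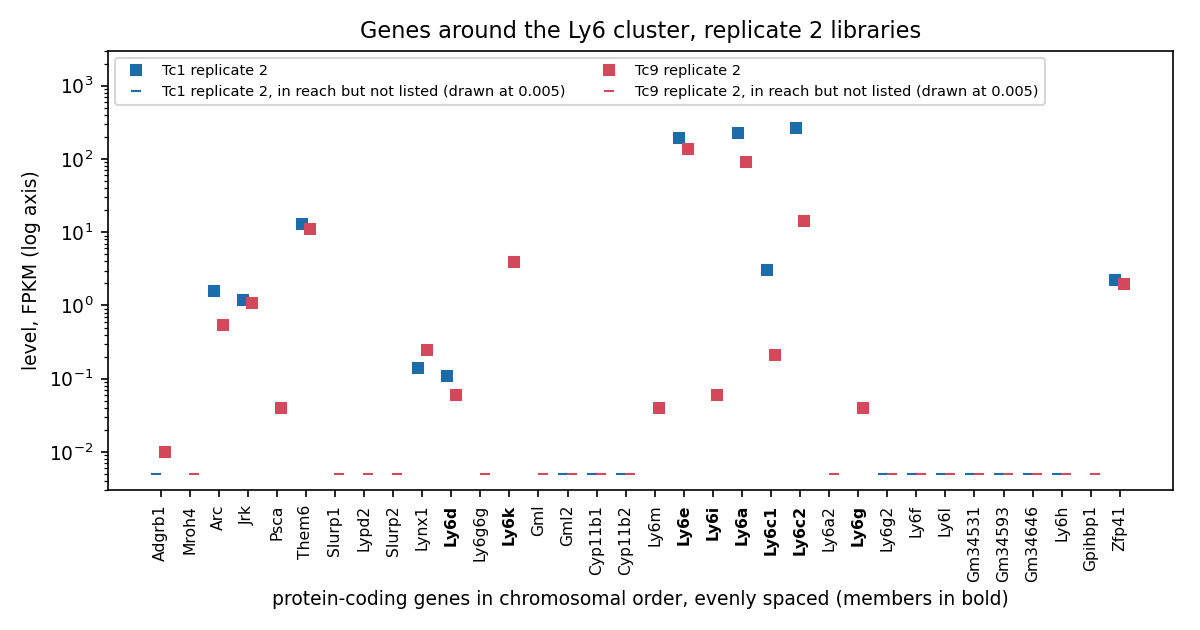
Level in FPKM on a log axis of 34 protein-coding genes in their order on chromosome 15, evenly spaced, in Tc1 replicate 2 (blue) and Tc9 replicate 2 (red), with members in bold and dashes for genes in reach of a table but not listed in it. Ly6e, Ly6a and Ly6c2 stand above all others, and Jrk, Them6 and Zfp41 at the sides have nearly the same level in both libraries.

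The Ly6/uPAR family outside these members mostly had few or no counts in the libraries that reach it. Of 37 such genes, 36 could be matched to an identifier and none had enough counts to be tested over 4 libraries. Of the 36, 14 were reached in both replicate 2 libraries. The rest were reached in Tc9 replicate 2 alone, so their level in Tc1 is not known here. In the replicate 2 libraries, 4 of 14 reached genes had 10 counts, 2 higher and 2 lower, and their median log2 ratio was -0.09, where 2 counts were added to each value here and in the other lists. Plaur, the urokinase receptor, had 162 counts in Tc1 replicate 2 against 12 in Tc9 replicate 2, at a log2 ratio of -3.55. Cd59a, an inhibitor of the complement attack complex, had 9 and 10 counts in Tc1 against 9 and 6, and Ly6g5b had 69 and 92 in the replicate 2 libraries. Ly6m, Ly6g6c, Lypd6, Lypd6b, Psca, Cd59b, Spaca4 and Ly6f were at 1 to 7 counts in the libraries where they were listed.

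Genes for the GPI anchor, on which the members depend for their place on the membrane, had no common direction. Of 32 genes of anchor synthesis and transfer, 13 were reached and passed the minimum in the replicate 2 libraries, 5 higher and 8 lower, where 47.6% of all genes were lower, at a median log2 ratio of -0.04. None was at least 2-fold lower, where 4.95% of all genes were, and 1 was at least 2-fold higher, where 10.9% of all genes were. That gene, Pigz, a mannosyltransferase of the anchor, had 1 count in Tc1 replicate 2 and 14 in Tc9 replicate 2. Piga, which adds the first sugar of the anchor, had 937 counts in Tc1 replicate 2 against 609 in Tc9 replicate 2, at a log2 ratio of -0.62. Pigh, a subunit of the same enzyme and the only one tested over 4 libraries, had 485.64 and 544.92 counts in Tc1 against 528.20 and 575.14, a log2 fold change of 0.10 (SE 0.13) with an adjusted p of 0.567 (edgeR).

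Transcripts of several other GPI-anchored proteins of T cells were higher in Tc9 cells. Of 4 tested over 4 libraries, 3 were higher in Tc9 and none lower, where 17.4% of all genes were called higher (edgeR, Benjamini-Hochberg). Cd24a, a mucin-like adhesion protein, had 342 and 298 counts in Tc1 against 536 and 565, a log2 fold change of 0.79 (SE 0.13, adjusted p = 0.00207). Bst1, an ADP-ribosyl cyclase, had 31 and 23 against 53 and 64, at 1.12 (SE 0.28, adjusted p = 0.0125). Art2b, an ADP-ribosyltransferase of T cells with the close copy Art2a, had 45 and 24 against 99 and 70, at 1.29 (SE 0.32, adjusted p = 0.0123). Without Tc1 replicate 2, 1 gene of the list was called. Cd48, a ligand of CD2 family receptors, did not pass, at 0.12 (SE 0.12, adjusted p = 0.477). In the replicate 2 libraries 7 of 11 were higher and 4 lower, where 47.6% of all genes were lower, at a median log2 ratio of 0.92. Among the higher was Nt5e (CD73, the ecto-enzyme that makes adenosine) with 668 and 2200 counts. Thy1, the congenic marker used in the sort, had 32275 and 26427.

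Genes that interferon induces, a response that Ly6c2, Ly6a and Ly6e are known to share, went both ways in Tc9 cells. The differences of 2-fold or more were mostly downward. Over 4 libraries 2 were tested, and 1 was lower, where 16.7% of all genes were called lower. Isg15, a ubiquitin-like protein, had 414 and 439 counts in Tc1 against 57 and 55, a log2 fold change of -2.92 (SE 0.17, adjusted p = 1.76e-06, edgeR). Gbp6, a guanylate-binding protein, had 5138.49 and 4718.08 counts against 5893.55 and 4820.78, at 0.12 (SE 0.13, adjusted p = 0.472). In the replicate 2 libraries 11 of 29 were higher and 18 lower, where 47.6% of all genes were lower, and the median log2 ratio was -0.24. At least 2-fold lower were 7, against 4.95% of all genes, and at least 2-fold higher was 1, against 10.9%.

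The interferon-induced genes with the lowest ratios included a chemokine, Cxcl10, at 238 counts in Tc1 replicate 2 against 21 and 12. The RNA-sensing enzyme Oas1a had 123 and 15 counts in the replicate 2 libraries, and Gbp5 had 1616 and 370. Others were higher in both Tc9 libraries. Irf1, a transcription factor induced by IFN-γ, had 2590 counts in Tc1 replicate 2 against 4398 and 4184, and Ifi47, a GTPase of the same response, had 4351 against 7846 and 7368. Socs1, which inhibits cytokine signaling, had 1467 against 2404 and 3646. Over the 3 libraries 5 of 16 such genes were lower in both Tc9 libraries and 8 higher, against 37.9% and 44.0% of all genes. These genes of the replicate 2 and 3-library comparisons were chosen after their values were seen, and their differences were not tested.

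Markers that are read beside Ly6C on CD8+ T cells also went both ways. Cd69, an early activation and residency marker, had 1232 and 1108 counts in Tc1 against 511 and 449, a log2 fold change of -1.28 (SE 0.13, adjusted p = 6.23e-05, edgeR), and it was the 1 gene called of 2 tested, where 34.1% of all genes were called in either direction. Cd44, the adhesion receptor of antigen-experienced cells, had 9849 and 10232 counts against 13191 and 11604, at 0.31 (SE 0.11) with an adjusted p of 0.0524, and it passed with DESeq2. In the replicate 2 libraries 8 of 17 were higher and 9 lower, where 47.6% of all genes were lower, at a median log2 ratio of -0.22.

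Among these markers, Ifng, the type 1 cytokine, had 15303 counts in Tc1 replicate 2 against 5097 and 4700, and Gzmb, granzyme B, had 215770 against 108448 and 92856. Itgae, the integrin CD103 of tissue-resident cells, had 59 counts in Tc1 replicate 2 against 4599 and 4619. The chemokine receptor Cx3cr1 had 3 against 134 and 132. Ifng and Gzmb, like Ly6c2, stood on the Tc1 side, and Itgae and Cx3cr1 stood on the Tc9 side. Over the 3 libraries, 7 of 14 markers were lower in both Tc9 libraries and 7 higher, against 37.9% and 44.0% of all genes. The markers named in this paragraph were chosen after their values were seen and do not stand for the list, and 1 Tc1 library reaches them.

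**Figure D3:**
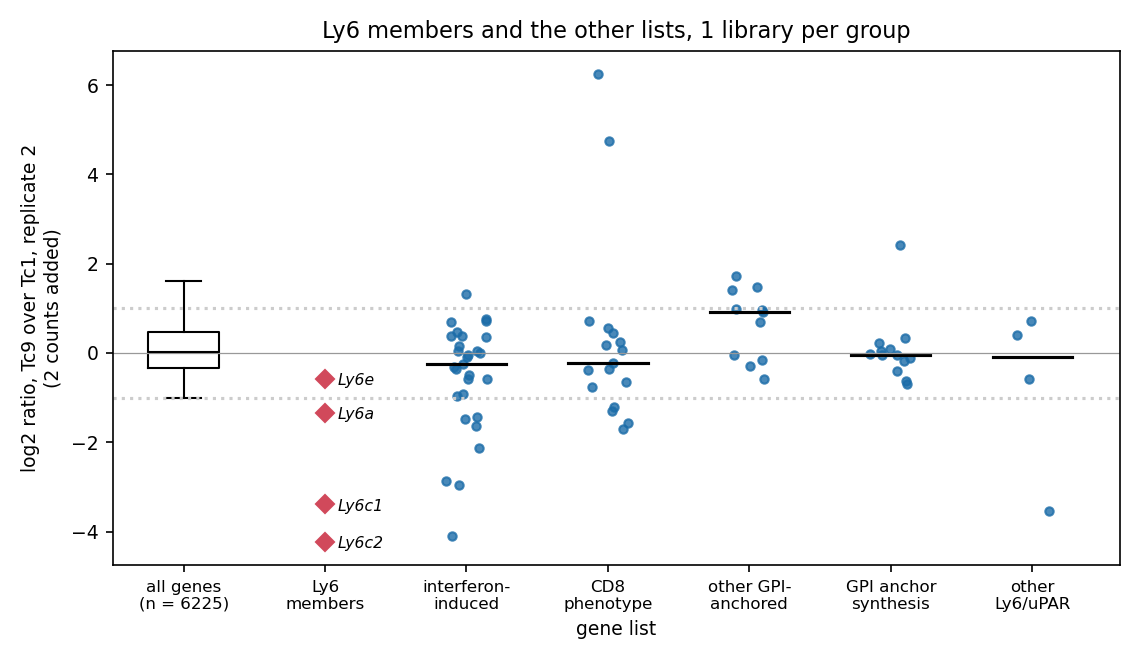
Log2 ratio of Tc9 replicate 2 over Tc1 replicate 2, with 2 counts added, for all 6225 genes (box: quartiles and median, whiskers: 5th to 95th percentile), the 4 Ly6 members with 10 counts (diamonds) and each gene of 5 lists (points, bar: median), with dotted lines at a 2-fold difference. The members lie below 0, and the other GPI-anchored proteins have a median of 0.92. The interferon-induced list spreads to both sides, with 7 genes at least 2-fold lower and 1 at least 2-fold higher.

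The genes nearest in pattern were found by the distance between log2 CPM values centered on each gene's own mean over the 4 libraries. Nearest to Ly6c2 were Cd80 at 0.932 log2 units, Cd36 at 1.41, Isg15 at 1.41, Il1rl2 at 1.55 and LOC100861615 at 1.88. Cd80, a costimulatory ligand, had 1724 and 1699 counts in Tc1 against 175 and 152. Cd36, a scavenger receptor for lipids, had 111 and 118 against 17 and 6, and Il1rl2, the IL-36 receptor, had 96 and 93 against 16 and 6. The nearest of them lay further from Ly6c2 than the 5 genes nearest to Ly6a lay from that gene. Cd80, Cd36, Isg15, Il1rl2 and LOC100861615 were also the genes with the next lowest fold changes after Ly6c2. The list thus restates the ranking for which Ly6c2 was picked. No gene tested had a lower fold change than Ly6c2, so nothing is read from the larger distances.

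Nearest to Ly6a were Cavin3 at 0.0952 log2 units, Cd69 at 0.106, Smim3 at 0.132, Plin2 at 0.157 and B3gnt5 at 0.160. Plin2, a coat protein of lipid droplets, had 1238 and 1248 counts in Tc1 against 598 and 555, and Smim3 had 1244 and 1241 against 565 and 439. The distances rest on 4 libraries in 2 groups, so they mostly measure the size of the group difference.

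**Figure D4:**
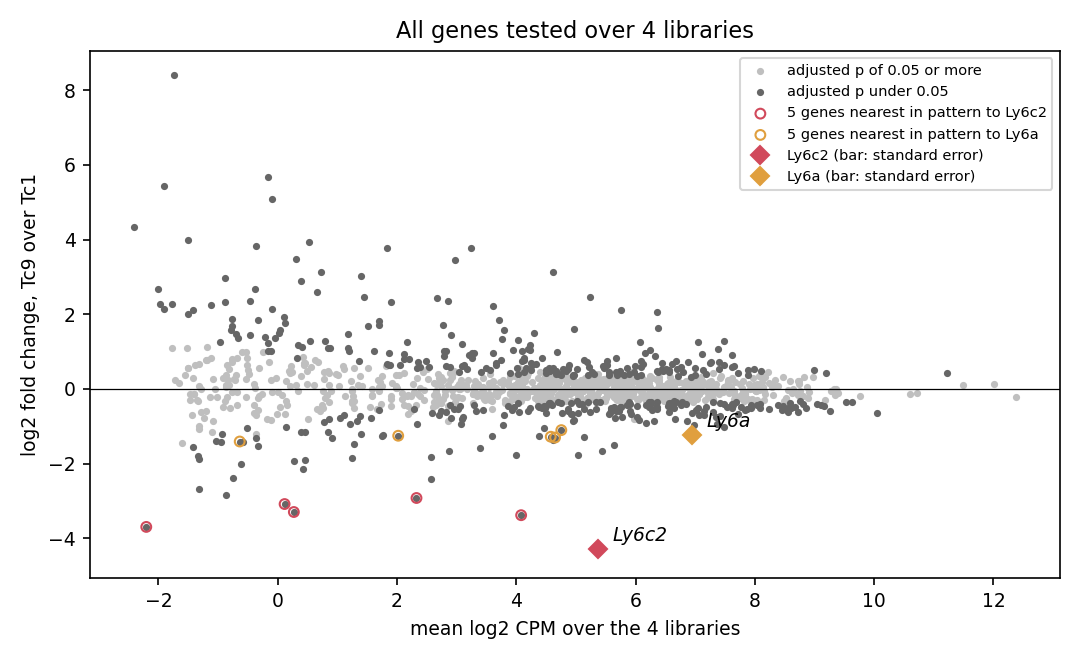
Fitted log2 fold change of Tc9 over Tc1 against the mean log2 CPM of the 1284 genes tested over 4 libraries, with Ly6c2 and Ly6a as diamonds (standard error bars of 0.13 and 0.12 lie within the markers) and the genes nearest to each in pattern circled. Ly6c2 lies lowest of all points at -4.29, and Ly6a lies at -1.24 with many genes at other levels near it.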

How the data were processed

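Tumor-infiltrating Tc1 and Tc9 cells were sequenced as 2 libraries of pooled RNA per group. The authors deposited, for each library, unnormalized expected counts and, scaled by transcript length and library size, FPKM values for each gene. The labels name mm10, and the aligner and counter are not given in the sources used here. The tables stop at different identifiers, so comparisons used the 1681 genes that 4 tables reach, the 3436 that 3 reach, or the 7829 that both replicate 2 tables reach. Library sizes of partial tables came from the ratio of count to FPKM relative to the complete table, over genes with 500 counts or more. Expected counts were rounded and tested with edgeR 4.0.16 (quasi-likelihood, TMM after a minimum count of 10, R 4.3.3, two-sided, Benjamini-Hochberg over 1284 genes). CPM values use the same normalized library sizes. In simulated data of these 1284 genes, 99% of 200 genes changed 4-fold were recovered, with 10 false calls among 208. The simulated counts had the same dispersion for all genes and both groups, unlike these libraries, so these rates do not carry over to them. The alternatives were DESeq2 1.42.0, limma 3.58.1, other scalings and filters, a replicate block and each library left out. The members and lists were chosen with earlier results of these data known. The rule named all members, list genes past an adjusted p of 0.05 (up to 4 a list and direction), detected Ly6/uPAR genes and the 5 genes nearest to Ly6c2 and to Ly6a, and other genes were named after their values were seen. Sources do not say whether the libraries of a group come from separate mice, so p-values measure the spread between libraries. That spread was larger in Tc9, with a chi-square per gene between the libraries of a group of 42.6, against 4.47 in Tc1. One gene of the CD8 marker list is not reported here by name.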

Additional observations from a re-analysis of the deposited data

How the results depend on the processing

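Over the 4 libraries, 224 genes were higher and 214 lower in Tc9, and the counts were within 1.5 times under other scalings, a stricter filter, limma, DESeq2 and the replicate block, while no filter gave 139 lower. Same-numbered libraries did not deviate together (r = -0.0644), so they share only a number, and the replicate block gave 231 higher and 213 lower, with 406 calls in common with the fit without it. Leaving out 1 library gave 99 to 424 higher and 74 to 430 lower, at 120 and 81 without Tc1 replicate 1, 99 and 74 without Tc1 replicate 2, 424 and 430 without Tc9 replicate 1, and 372 and 372 without Tc9 replicate 2, and the cause was not tested. The Ly6c2 log2 fold change was -4.17 with limma on log2(FPKM + 1), which shrinks low values, and -4.33 to -4.26 without a library. Ly6a ranged from -1.35 to -1.14 without a library. With Tc9 replicate 1 averaged in, the replicate 2 log2 ratio was -1.24 for Ly6a in place of -1.34 and -0.80 for Ly6e in place of -0.57, and depth alone gave -0.52 for Ly6e. Summing Ly6c1 and Ly6c2, added after seeing the data, gave -4.23. Cd44 was called higher, 1 gene in place of 0, with RLE, depth alone, minimum count 30, both limma fits and DESeq2, and in a range of 0 to 1 without a library. Interferon-induced genes called higher ranged from 0 to 1, and other GPI-anchored genes called higher from 1 to 4. With counts divided by length in place of FPKM, log2 of Ly6e over Ly6c2 was -0.23 in Tc1 replicate 2, and log2 of Ly6e over Ly6a was -0.082 there, -0.012 in Tc9 replicate 1 and 0.68 in Tc9 replicate 2, with no change of order. Of 193 values under an alternative, 164 stayed within their limit and 29 moved. None of the log2 values changed direction, a check that does not apply to the counts of genes called. Those counts include lists with little to test, since in the main fit GPI anchor synthesis had 1 gene tested and other Ly6/uPAR 0.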
